A study of Homo sapiens with 3 samples.

Results

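The adhesion G protein-coupled receptors were the 28 protein-coding genes whose deposited name starts with ADGR, out of 78932 genes in the tables and 20116 that are protein-coding. They fell into 8 subfamilies: 7 members in G, 4 each in L (latrophilins), E and F, 3 each in A and B (brain-specific angiogenesis inhibitors, BAI), 2 in D and 1 in V. RNA was measured in a single group of 3 libraries from iCell GlutaNeurons (iGluta), wild-type and untreated human neurons that FujiFilm Cellular Dynamics makes from induced pluripotent stem cells, harvested after 3 weeks in culture. The product is 1 cell line and the labels name no donor or separate culture, so every SD and p here reflects differences among 3 libraries that could be technical only. The study set out to learn the cell makeup of the culture and which receptors and channels it expresses. No control group exists, so levels were set against a fixed bar of 1 TPM, a transcript abundance scaled to length and library size, and against each other within a library.

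Adhesion receptors carry a long extracellular region ahead of the usual 7 membrane-spanning helices. In most of them a GAIN domain cuts the protein at an internal site, and the stretch exposed by that cut can switch on G protein signalling. Latrophilins and BAI receptors are known for shaping synapses, and members of other subfamilies act in cortical layering, myelination, vessel growth, hearing and immunity. The cadherin-like CELSR genes belong to the same class by structure but lie outside the name rule.

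The libraries held 41079348, 60092991 and 34732725 estimated counts for replicates 1 to 3. For a gene with no count the limit is 3 counts. In CPM (counts scaled to library size) that is 0.073, 0.0499 and 0.0864, for counting error only. Replicate 3 stood apart: mitochondrial genes took 10.6% of its TPM, against 4.25% and 4.01% in replicates 1 and 2. With replicate 1, 2 or 3 left out, 14, 13 and 13 members stood above the bar and 6, 6 and 8 below, against 14 and 8 with all of them. All 10 pan-neuronal markers were above 1 TPM, as were 5 of 7 glutamatergic and 7 of 7 GABAergic ones, although the label names glutamatergic neurons alone. Over tested protein-coding genes 71.2% were above, so 5 of 7 was close to that background. Glutamatergic markers summed to 349.5, 371 and 416 TPM in replicates 1 to 3, with NEUROD2 below and SLC17A8 undecided. GABAergic markers summed to 1636, 1571 and 619 TPM. In a bulk sample, fewer cells of a type and less RNA per cell cannot be told apart.

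Of the 28 members, 24 had counts in every library and were tested, and 4 were listed at 0 throughout. Of the 24, 14 were above 1 TPM, 8 were below and 2 were undecided (limma on log2(TPM + 0.1), Benjamini-Hochberg adjusted p under 0.05 over 38992 genes). Over all genes tested 40.6% were above and 45.1% below, and over protein-coding genes 71.2% and 19.9%. The members' 58.3% above and 33.3% below therefore lay between these backgrounds. Their median level was 3.09 TPM, against 12.5 TPM for tested protein-coding genes. The 67 tested protein-coding genes named GPR and a number, mostly orphan receptors of other families, had 55.2% above, 34.3% below and a median of 2.61 TPM.

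Expression was concentrated in a few genes. The family summed to 680, 722 and 612 TPM in replicates 1, 2 and 3, and its 5 highest genes made up 80.1 ± 1.26% of that sum (SD, n = 3). These were ADGRG1, ADGRL1, ADGRB2, ADGRB1 and ADGRB3, and in each library they were ordered that way by TPM except that ADGRL2 passed ADGRB3 in replicate 3. Each of the 4 steps between neighbours among these 5 had the same sign in 3 of 3 libraries and a mean log2 difference over 2 SD from 0. The order came from the mean TPM of these same libraries, so the direction of each mean step was largely fixed in advance. With 3 libraries an exact sign-flip permutation test cannot go below p = 0.25, so no such step can pass 0.05, and the 2 SD rule stands in its place. Of the 15 steps between neighbours among the 16 members at a mean of 1 TPM or more, 7 met the rule and 8 did not. From ADGRD1 downward no neighbours were separated by it.

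**Figure D1:**
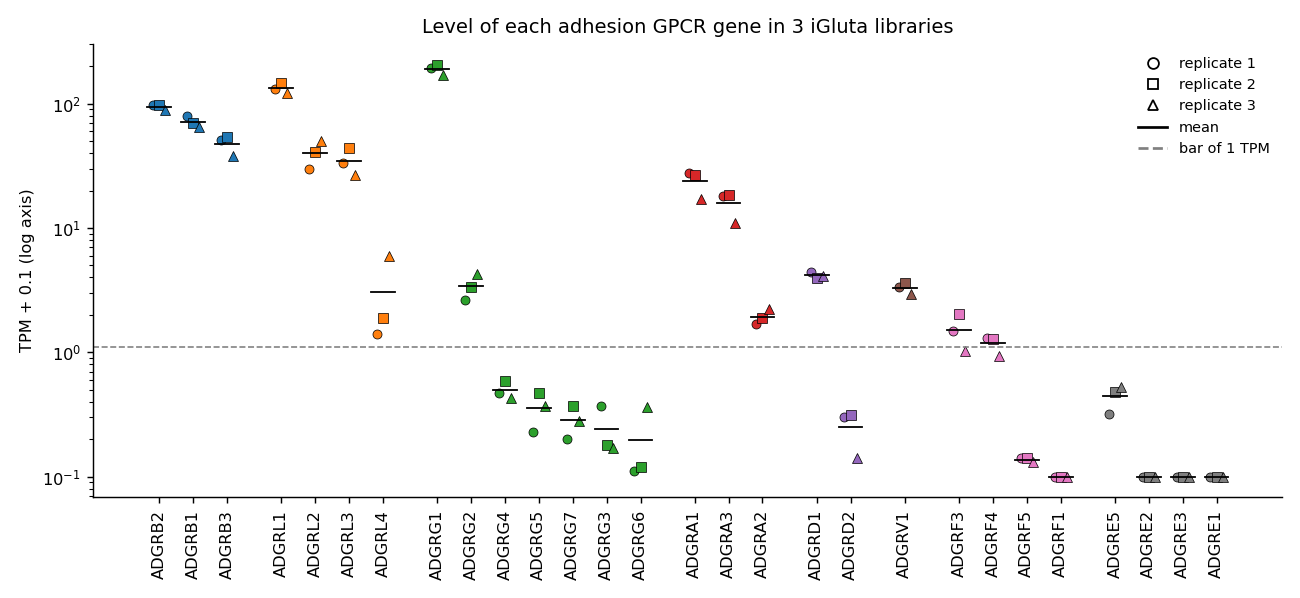
Level of the 28 adhesion receptor genes, grouped by subfamily, as TPM + 0.1 on a log axis. Each symbol is 1 library, the short line is the mean and the dashed line is the bar of 1 TPM. ADGRG1, ADGRL1 and the 3 ADGRB genes lie highest, and 3 of the 4 ADGRE genes lie at 0.

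The latrophilins, receptors for teneurins and FLRT proteins on the facing membrane, were all above the bar. ADGRL1, the neuronal receptor for the spider toxin alpha-latrotoxin, stood at 132, 146 and 122 TPM in replicates 1, 2 and 3, a mean of 133 ± 12.2 (SD, n = 3; adjusted p = 8.51e-11, limma). ADGRL2, which acts at synapses of hippocampal neurons in mice, was at 29.5, 40.9 and 49.9 TPM and ADGRL3, a gene linked to attention deficit disorder, at 33.3, 44.0 and 26.8 TPM. The 2 means of 40.1 ± 10.2 and 34.7 ± 8.66 TPM did not differ beyond their spread, since ADGRL2 was the higher only in replicate 3. ADGRL1 exceeded ADGRL3 by 1.96 ± 0.23 and ADGRL2 by 1.76 ± 0.44 on the log2 scale, positive in 3 of 3 libraries for both.

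ADGRL4, known from endothelial cells and vessel growth, was the low and uneven member of the group. It was at 1.31, 1.77 and 5.85 TPM, from 55, 62 and 184 estimated counts, so replicate 3 alone stood high. Its mean of 2.98 ± 2.50 TPM passed the test narrowly (adjusted p = 0.0230, limma), and without replicate 3 it was undecided (adjusted p = 0.105, limma). Of 8 endothelial markers EGFL7 was above 1 TPM (42.7 ± 3.92), 4 were below and PECAM1, CDH5 and ERG were listed at 0 in every library. The list summed to 47.3, 39.5 and 44.0 TPM, nearly all of it EGFL7. The other 7 markers summed to 1.14, 1.01 and 0.42 TPM, lowest in replicate 3.

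All 3 BAI genes were above the bar. ADGRB2 stood at 97.1, 96.9 and 89.3 TPM, the most even of the members above the bar (94.4 ± 4.41; adjusted p = 8.59e-11, limma). ADGRB1, which binds phosphatidylserine and Nogo receptors and drives engulfment through ELMO and DOCK proteins, was at 79.8, 70.0 and 65.2 TPM. ADGRB3, a synaptic receptor for C1q-like proteins, was at 50.9, 54.0 and 38.1 TPM. The log2 ratio of ADGRB2 over ADGRB3 was 1.0 ± 0.20 and that of ADGRB2 over ADGRB1 was 0.40 ± 0.10, all positive, and ADGRB2 and ADGRB1 did not overlap across libraries.

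The G subfamily was split. ADGRG1 (GPR56), whose loss in humans disturbs cortical layering and which also serves oligodendrocyte precursors and microglia, was the highest member at 194, 206 and 171 TPM (191 ± 17.9; adjusted p = 6.66e-11, limma) and ranked 875 of 20116 protein-coding genes. ADGRG2, best known from the epididymis, was at 2.55, 3.24 and 4.19 TPM. The other 5 were below: ADGRG4 (0.397 ± 0.0833 TPM), ADGRG5 (0.257 ± 0.121), ADGRG7 (0.183 ± 0.0850), ADGRG3 (0.140 ± 0.113) and ADGRG6 (0.0967 ± 0.142), the Schwann cell receptor needed for myelination, which had 1, 2 and 4 counts. Markers of Schwann and neural crest cells had 2 of 6 genes above, NGFR and ERBB3, and summed to 13.2, 13.4 and 10.9 TPM, with S100A4 at 0. ADGRG1, ADGRG3 and ADGRG5 are neighbours on chromosome 16, with ADGRG1 at chr16:57619738-57665567 (GRCh38.p14) and ADGRG3, a neutrophil gene, starting 61 bases beyond its end. Of the other cells known to express ADGRG1, precursor and oligodendrocyte markers had 0 of 8 genes above 1 TPM (sums of 1.87, 1.88 and 1.20 TPM; MAG at 0) and myeloid markers 0 of 10 (3.14, 2.71 and 1.57 TPM; AIF1 and TYROBP at 0). Markers of progenitors and dividing cells summed to 249, 252 and 404 TPM, with none at 0 in every library. Of these 8, VIM, NES and PAX6 were above, HES5 and SOX2 undecided, and the dividing-cell genes CDK1 (0.170 ± 0.080 TPM), TOP2A (0.123 ± 0.1002) and MKI67 (0.0533 ± 0.0503) below. Astrocyte markers had 3 of 9 above and summed to 144, 148 and 91.3 TPM, most of it from SLC1A2 (61.6 ± 17.1 TPM) and ALDOC (61.1 ± 15.3), while GFAP (0.823 TPM) and AQP4 (0.840) were undecided. Mesenchymal markers had 3 of 7 above (12.7, 12.8 and 9.47 TPM; LUM at 0). The part of such cells in the ADGRG1 level was not tested.

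All 3 A genes were above the bar. ADGRA1, an orphan receptor enriched in brain, was at 27.7, 26.4 and 16.9 TPM, and ADGRA3 at 18.1, 18.2 and 10.9 TPM. Replicate 3 was the lowest library for both, and ADGRA1 exceeded ADGRA3 by 0.60 ± 0.05 on the log2 scale. ADGRA2, which with RECK lets endothelial cells of the brain answer WNT7, was at 1.59, 1.78 and 2.12 TPM (1.83 ± 0.269; adjusted p = 0.0173, limma), and without replicate 2 it was undecided (adjusted p = 0.0656).

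The D and V subfamilies each had 1 member above. ADGRD1 was at 4.34, 3.85 and 3.98 TPM, while ADGRD2 (0.150 ± 0.0954 TPM) was below. ADGRV1, the very large receptor mutated in Usher syndrome type 2, was at 3.26, 3.50 and 2.87 TPM.

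No F or E gene was above 1 TPM. ADGRF3 (1.37, 1.93 and 0.92 TPM) and ADGRF4 (1.21, 1.19 and 0.83 TPM) were undecided (adjusted p = 0.263 and 0.818, limma), ADGRF5, of lung and endothelium, was below at 0.0367 ± 0.00577 TPM, and ADGRF1, the synaptamide receptor, had no count. In the E subfamily, which is expressed mainly by immune cells, ADGRE5 (CD97) was below at 0.343 ± 0.110 TPM, from 14, 32 and 23 counts. ADGRE1, ADGRE2 and ADGRE3 had no count in any library. ADGRE2 and ADGRE5 share near-identical EGF-like domains, so reads of that region are uncertain. ADGRE5 was undecided without replicate 1 (adjusted p = 0.0821, limma) and without replicate 2 (0.0583), and so was the G gene ADGRG4 (0.0835 and 0.0676).

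By subfamily, the B, L and G genes took nearly equal parts of the family's TPM. The G part was almost all ADGRG1, at a mean of 191 of 195 TPM. The BAI genes made up 31.9 ± 1.496%, the latrophilins 31.5 ± 2.30% and the G genes 29.04 ± 0.202% (SD, n = 3), followed by A at 6.09 ± 1.08%. The D, V, F and E genes made up 0.629, 0.478, 0.371 and 0.0518% on average. The log2 ratio of latrophilins over BAI genes was -0.21, 0.07 and 0.08 in replicates 1, 2 and 3, a mean of -0.02 ± 0.17, so neither subfamily led by TPM. Without replicate 1 it was 0.08 ± 0.01 and met the 2 SD rule. On counts, which are not divided by length, latrophilins held 48.9 ± 2.06% and BAI genes 25.2 ± 0.844%, and the ratio on CPM was 0.95 ± 0.10.

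**Figure D2:**
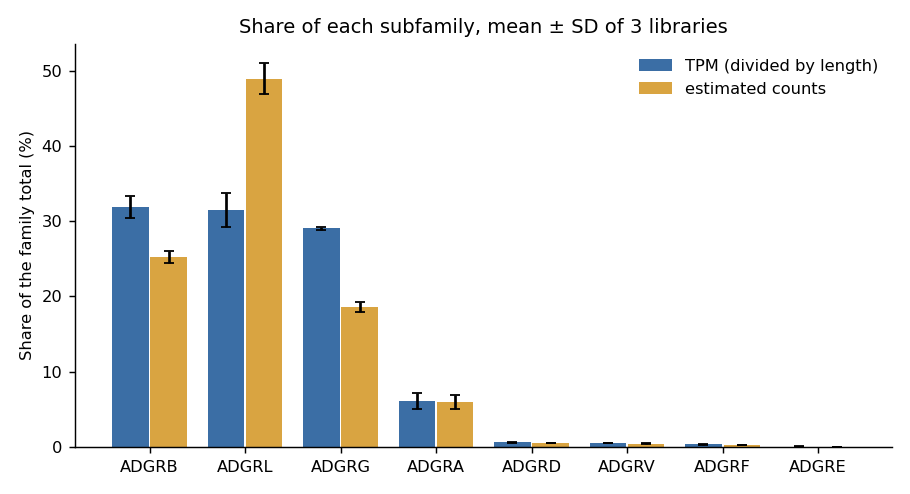
Share of each subfamily in the family total, by TPM (left bar) and by estimated counts (right bar), as mean ± SD of 3 libraries in percent. Latrophilins and BAI genes are level at 31.5% and 31.9% of TPM, while latrophilins hold 48.9% of the counts.

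The transcript length behind each TPM value could be read back from the tables. Across genes with 1 annotated transcript (211, 288 and 159 in replicates 1, 2 and 3), counts divided by TPM followed transcript length in a straight line with a median error of 0.0247, 0.0316 and 0.0263%. For a gene with several transcripts the same quotient gives their mean length, weighted by abundance. This was done for the 17 members with at least 30 counts in every library, and the implied length was 20.9 to 110% of the longest coding transcript in GENCODE release 29, with a median of 71.1%. A value above 100% means that the authors' annotation held a longer transcript for that gene, as for ADGRA2.

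ADGRV1 stood furthest from its full-length form. Its longest coding transcript has 19554 bases, while the implied mean was 4085 ± 416 bases (SD, n = 3), so most of the TPM given to it belongs to shorter annotated transcripts. Taking all its counts as full-length would give 0.650 ± 0.130 TPM in place of 3.21 ± 0.318, and the gene would be undecided. ADGRL3 (6177 ± 206 of 12636 bases), ADGRB1 (3054 ± 158 of 6241), ADGRL4 (1775 ± 374 of 3527) and ADGRB3 (3273 ± 220 of 6010) also lay under 60%. ADGRL1 was close to full length at 7256 ± 49.6 of 7853 bases. With every member at its longest transcript ADGRL1 (123 ± 10.7 TPM) and ADGRG1 (121 ± 12.1 TPM) were level, ADGRL4 was undecided, and 12 members were above 1 TPM. At those lengths ADGRL2 (32.3 ± 9.71 TPM) had a higher mean than ADGRB3 (25.1 ± 3.17), though not in replicate 1, so the 5 highest genes also depend on length. How RSEM divides reads among overlapping transcripts therefore bears on these levels, and transcript-level values were not used here.

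**Figure D3:**
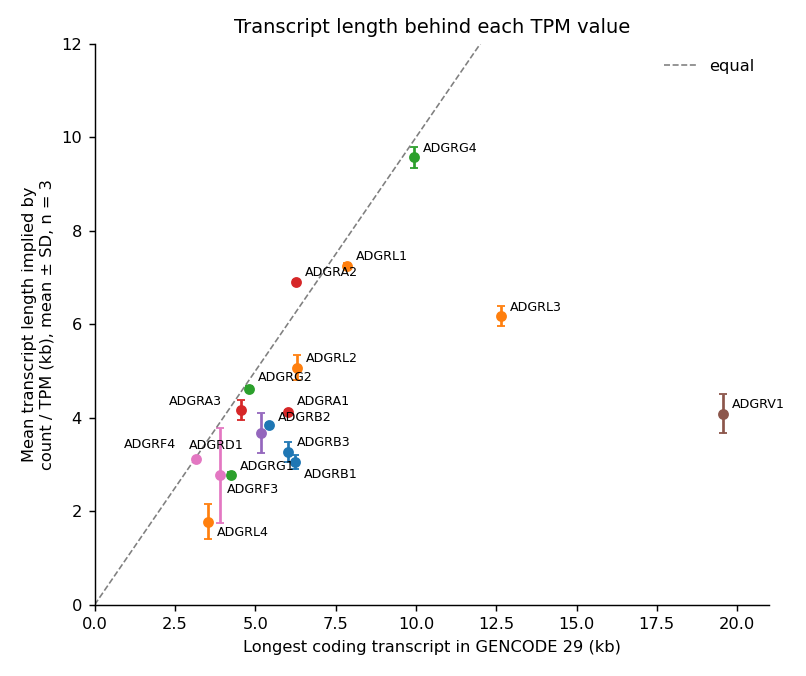
Mean transcript length implied by count over TPM (vertical axis, kb, mean ± SD of 3 libraries) against the longest coding transcript of GENCODE release 29 (horizontal axis, kb) for 17 members. Points on the dashed line are at full length. ADGRV1 lies farthest below it, at 4085 of 19554 bases.

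The stretches just ahead of the start sites were compared for CG dinucleotides, which are dense in the promoters of many widely expressed genes. RefSeq start windows of 250 bases (GRCh38.p14) were compared for 19 of 28 members, several with more than 1 start. The richest window of each gene was counted. ADGRB1 and ADGRA2, both above 1 TPM, were left out of this comparison, and so were ADGRL1 and ADGRD1, also above it. The low group was incomplete too: ADGRG3, ADGRG4, ADGRG5 and ADGRE5, all below 1 TPM, and ADGRE2, at 0, were left out. The 19 therefore need not be all the members for which RefSeq holds a start. The 10 compared members above 1 TPM had a median of 27.5 CG, from 6 to 46, and the 7 below it or at 0 a median of 3, from 2 to 34. Over 22198 windows of protein-coding genes the median was 16, and 96.8% held at least 1 CG, so 7 of the 10 and 1 of the 7 exceeded the median. That median is over single windows, so members scored by the richest of several had an advantage. CG reads the same on both strands. The 6 printed windows show the range and were chosen after their counts were seen, with each CG in capitals. ADGRB2 (38 CG, chr1:31764341-31764590, minus strand) and ADGRB3 (46 CG, chr6:68635032-68635281, plus strand) are rich and expressed, and ADGRE3 (3 CG, chr19:14674845-14675094, minus strand) is poor and at 0. ADGRG1 and ADGRG6 run the other way: the highest member had 4 CG in the window of its outermost listed start (chr16:57619488-57619737, plus strand), and ADGRG6, at 0.0967 TPM, had 34 (chr6:142301757-142302006, plus strand). ADGRG1 has many alternative starts, and which one these neurons use was not measured.
ADGRB2: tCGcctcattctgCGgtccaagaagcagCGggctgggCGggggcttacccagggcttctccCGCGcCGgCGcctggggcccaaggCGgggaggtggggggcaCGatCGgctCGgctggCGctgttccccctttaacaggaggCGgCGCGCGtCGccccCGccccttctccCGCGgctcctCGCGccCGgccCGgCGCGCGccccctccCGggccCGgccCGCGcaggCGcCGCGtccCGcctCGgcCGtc
ADGRB3: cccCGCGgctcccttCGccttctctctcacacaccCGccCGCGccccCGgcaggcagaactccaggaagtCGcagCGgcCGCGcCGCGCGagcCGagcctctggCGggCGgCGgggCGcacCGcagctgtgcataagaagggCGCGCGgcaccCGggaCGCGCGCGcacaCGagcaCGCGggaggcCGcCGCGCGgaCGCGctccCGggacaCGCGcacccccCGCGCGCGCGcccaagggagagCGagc
ADGRB3-DT: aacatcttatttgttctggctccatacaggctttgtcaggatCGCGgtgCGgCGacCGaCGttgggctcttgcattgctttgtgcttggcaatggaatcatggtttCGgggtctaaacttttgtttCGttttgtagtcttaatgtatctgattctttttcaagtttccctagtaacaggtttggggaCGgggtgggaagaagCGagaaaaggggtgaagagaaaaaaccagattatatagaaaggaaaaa
ADGRG1: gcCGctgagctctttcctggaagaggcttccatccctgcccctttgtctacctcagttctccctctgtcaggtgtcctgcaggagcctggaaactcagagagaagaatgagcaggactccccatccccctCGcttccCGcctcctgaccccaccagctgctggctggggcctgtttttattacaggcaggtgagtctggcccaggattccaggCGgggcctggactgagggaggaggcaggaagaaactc
ADGRG6: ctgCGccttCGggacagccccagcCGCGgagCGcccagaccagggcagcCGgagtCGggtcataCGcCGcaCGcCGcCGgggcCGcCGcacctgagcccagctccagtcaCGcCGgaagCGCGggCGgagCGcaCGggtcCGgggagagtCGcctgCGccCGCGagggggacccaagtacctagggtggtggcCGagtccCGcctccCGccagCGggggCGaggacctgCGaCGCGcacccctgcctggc
ADGRE3: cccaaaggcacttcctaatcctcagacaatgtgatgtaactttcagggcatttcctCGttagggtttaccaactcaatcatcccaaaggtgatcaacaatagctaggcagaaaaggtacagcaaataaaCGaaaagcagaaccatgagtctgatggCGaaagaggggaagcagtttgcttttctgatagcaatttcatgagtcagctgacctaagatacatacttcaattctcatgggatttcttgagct

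ADGRB3-DT is a noncoding RNA that starts 958 bases from ADGRB3 and runs away from it, and its own window held 10 CG (chr6:68634325-68634574, minus strand). It was at 43.40, 41.05 and 40.95 TPM (41.8 ± 1.39; SD, n = 3), close to the 47.7 ± 8.45 TPM of ADGRB3, which lay above it in replicates 1 and 2 and below it in replicate 3. A CG count in such a window is a description and no measure of promoter activity.

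Ligands and partners of these receptors were widely expressed. Of 71 genes in 8 lists, 63 were above 1 TPM, 5 were below and 3 were undecided (limma, adjusted over all genes), read against the 71.2% above and 19.9% below among protein-coding genes. All 14 latrophilin ligands and ligand partners were above, with a median of 29.6 TPM, among them the neurexin genes NRXN2 (515 ± 12.4 TPM) and NRXN3 (82.5 ± 22.7) and the FLRT protein gene FLRT2 (88.9 ± 10.8). The 4 teneurin genes, main ligands of latrophilins, ran from 8.97 to 34.7 TPM. Of 17 BAI ligands and partners 15 were above, with the scaffold gene DLG4 at 331 ± 15.6 TPM, the engulfment adaptors ELMO1 (126 ± 12.8) and ELMO2 (77.8 ± 6.38) and C1QL1, a C1q-like ligand of ADGRB3, at 76.4 ± 23.6 TPM. Of the other C1q-like genes C1QL3 was above (2.50 ± 0.365 TPM), C1QL4 undecided and C1QL2 below.

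The ADGRG1 ligands COL3A1 and TGM2, from a joint list of ADGRG1 and ADGRG6 ligands, were below the bar. COL3A1, the collagen that binds it at the brain surface, was at 0.040 ± 0.0458 TPM and TGM2, the transglutaminase that binds it, at 0.050 ± 0.0361. In that list 4 of 7 were above, led by PRNP (183 ± 17.0 TPM), the prion protein gene whose product activates ADGRG6 in mice, and COL4A2 (11.7 ± 3.32), with LAMA2 (2.65 ± 0.785) and COL4A1 (1.95 ± 0.223) behind them.

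Most partners of the remaining receptors were above the bar too. All 7 genes of the ADGRA2 and WNT7 list were above, with a median of 5.89 TPM and LRP6 (11.2 ± 2.77), FZD1 (11.1 ± 4.46), LRP5 (8.32 ± 0.399) and WNT7B (5.89 ± 0.765) the highest. All 6 of the ADGRE5 and ADGRD1 list were above, with THY1 at 243 ± 18.02, ITGB1 at 58.6 ± 6.72, PTK7 at 17.7 ± 1.55 and the CD97 ligand CD55 at 11.1, 10.2 and 22.8 TPM. Of the Usher type 2 list the scaffold genes WHRN (40.4 ± 5.97 TPM) and PDZD7 (27.9 ± 0.708), the myosin gene MYO7A (3.09 ± 0.720) and ADCY5 (60.9 ± 3.04) were above. Of 12 G protein alpha genes 11 were above, led by GNAS (6464 ± 546 TPM), GNAO1 (356 ± 14.3), GNAI2 (199 ± 7.72) and GNAI1 (186 ± 17.9). Of the CELSR genes CELSR3 (65.5 ± 9.20 TPM) and CELSR2 (43.9 ± 9.85), which guide axon tracts, were above, and CELSR1 (0.510 ± 0.613) was undecided.

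**Figure D4:**
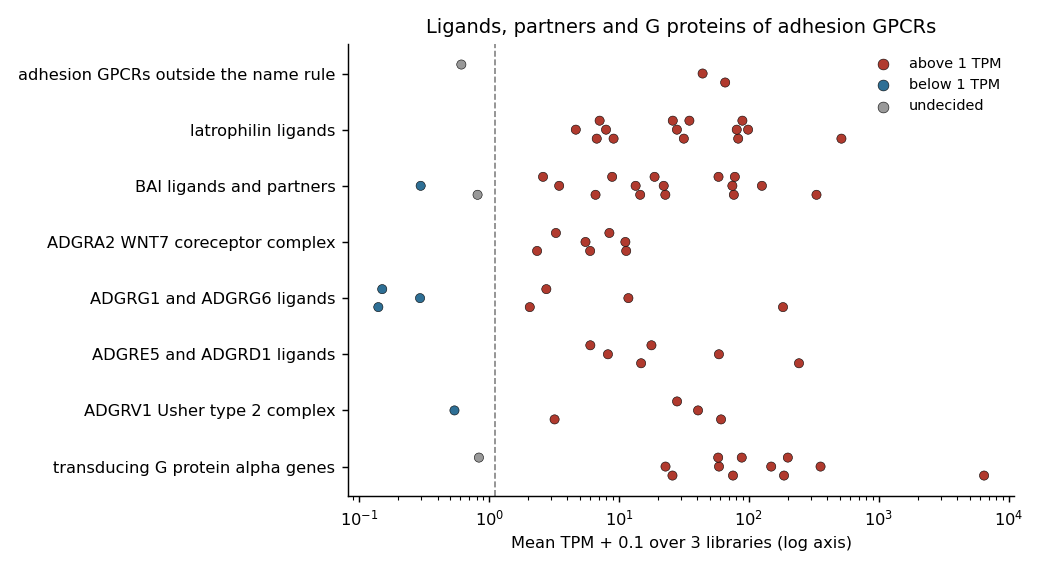
Mean TPM + 0.1 over 3 libraries (log axis) of 71 ligand, partner and G protein genes in 8 lists, each point a gene. Red points were above the bar of 1 TPM (dashed line), blue points below and grey points undecided. All 14 latrophilin ligand genes lie to the right of the bar.

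Among the 19 members with a mean of at least 10 counts, ADGRL4 differed most in replicate 3. The difference of replicate 3 from the mean of replicates 1 and 2 was taken on log2(TPM + 0.1), and over 18192 genes at 1 TPM or more its median was -0.13, with the middle 90% from -0.97 to 0.74. Among the 16 members at a mean of 1 TPM or more 11 were lowest in replicate 3, 4 were highest there, and the median was -0.21. Over the 18192 genes 53.0% were lowest and 22.9% highest there. Of the 19 members with a mean of at least 10 counts, 18 lay inside that middle 90% and ADGRL4 lay above it at 1.87. ADGRG2 (0.53) and ADGRL2 (0.52) were next, and ADGRA1 (-0.67), ADGRA3 (-0.73) and ADGRF3 (-0.76) were lowest. For ADGRF3 the sign depended on length, since TMM-scaled CPM gave 0.19 and its implied length was 3945 bases in replicate 3, against 2215 and 2147 in replicates 1 and 2. ADGRL4 had the largest biological coefficient of variation of the 18 members with enough counts, 0.542, against 0.107 to 0.263 for the others and a common value of 0.188 over 19089 genes (edgeR). That value comes from the same libraries as its difference in replicate 3 and is no separate result. A single library gives no test of such differences. Beside them, GABAergic markers summed to 1636, 1571 and 619 TPM in replicates 1, 2 and 3, epithelial markers to 118, 117 and 256 and progenitor markers to 249, 252 and 404, with no gene of these lists at 0 in every library. Within the progenitor list VIM (123, 120 and 267 TPM) and NES (38.1, 43.9 and 88.5) were highest in replicate 3, while PAX6 (84.5, 85.5 and 46.8), SOX2 and TOP2A were lowest there. All 7 GABAergic markers were lowest in replicate 3, and KRT8 (25.95, 24.4 and 115 TPM) gave most of the epithelial difference. The part of these shifts in the members' differences was not tested.

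**Figure D5:**
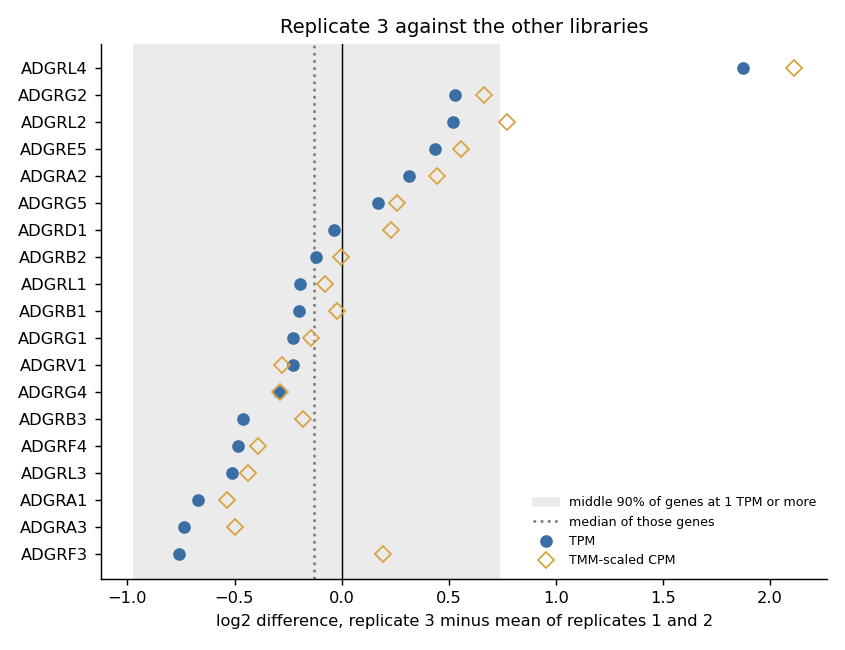
Difference of replicate 3 from the mean of replicates 1 and 2 (log2) for the 19 members with a mean of at least 10 counts, by TPM (filled) and by TMM-scaled CPM (open). The band is the middle 90% and the dotted line the median of 18192 genes at 1 TPM or more. By TPM, ADGRL4 at 1.87 is the 1 member outside the band.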

How the data were processed

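RNA levels of iGluta neurons were taken from both deposited tables. The authors deposited estimated counts, not all whole, and TPM per gene, made with RSEM (version not given) on GRCh38.p14, per the submitters' processing notes; polyadenylated RNA and strand-specific libraries were used, per the labels' protocols. The sources used here name no aligner, annotation release or strand setting, so overlapping and antisense genes are less certain. Libraries were not duplicates (chi-square per degree of freedom of 22.5, 44.7 and 63.6).

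Each gene was compared with 1 TPM by limma 3.58.1 on log2(TPM + 0.1) (intercept only, eBayes with trend, 2-sided), adjusted over 38992 genes with any TPM; this scale understates differences of low genes. Tested on simulated data for 32001 genes, the fit called 35 of 40 genes simulated at 2 TPM above, 34 of 40 simulated at 0.5 TPM below, and none of 40 simulated at the bar. The simulation gave every gene the same spread and set no library apart. Its rates need not hold for uneven members such as ADGRL4. Spread was estimated with edgeR 4.0.16 (TMM, filterByExpr) on rounded counts. DESeq2 1.42.0 gave alternative size factors. Start windows come from RefSeq, transcript lengths from GENCODE release 29. All members were accounted for; partner lists of 5 or fewer genes were named whole and longer ones by their 4 highest genes, except for genes not reported here. Members and lists were chosen with earlier results of these data known.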

Additional observations from a re-analysis of the deposited data

How the results depend on the processing

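With the bar kept at 1 TPM, 12 to 14 members were above it under every alternative run (14 as reported), and 62 to 63 partner genes. Against a bar of 0.5 TPM, 16 members and 63 partner genes were above, and against 2 TPM, 12 and 58. The number of members below was 3 with a mean count of at least 10, which removes the lowest genes from the test. It was 5 with a bar of 0.5 TPM, against 8 as reported. ADGRA2 turned to -0.13 (log2) against a bar of 2 TPM, and ADGRV1 to -0.57 at its longest transcript, an alternative chosen after seeing the data; neither passed the test there. ADGRL4 was undecided with a pseudocount of 1, without the variance trend, with a bar of 2 TPM, at its longest transcript and without replicate 3. The latrophilin over BAI ratio, -0.02 as reported, was 0.95 on TMM-scaled CPM, 0.96 with DESeq2 size factors and 0.47 at longest transcripts, each over 2 SD from 0; length alone separates these scales. It ranged from -0.0701 to 0.0785 with each replicate left out, the last without replicate 1, where the mean lay over 2 SD from 0. The 4 ratios between single genes stayed positive and over 2 SD from 0 under every alternative run. The common coefficient of variation was 0.222 with no filter on low counts and 0.12 to 0.218 with each replicate left out, lowest without replicate 3. No paired analysis was possible because the series has 1 group. Members under about 10 counts are limited by depth.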

Other observations

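Rows that carry the ADGR name but are not protein-coding were left out of the family. The processed pseudogene ADGRF5P1 was at 3.65, 6.22 and 4.82 TPM, far above its parent gene ADGRF5, which was at 0.04, 0.04 and 0.03 TPM. ADGRA3P1 was undecided at 0.503 ± 0.2503 TPM (SD, n = 3), against 15.7 ± 4.19 TPM for ADGRA3. Of the antisense RNAs, ADGRA1-AS1 was at 8.57, 8.63 and 6.71 TPM and ADGRL1-AS1, which overlaps ADGRL1, at 1.5, 2.17 and 1.43 TPM. By RefSeq, the spans of 20 of 28 members, introns included, overlap another listed gene, pseudogenes and microRNAs among them. Strand and exons were not compared and the share over all genes was not computed. How far the members' values depend on the strand setting of the counting was not tested. ADGRL3-AS1, ADGRF5-AS1, ADGRF5P2 and ADGRE4P were listed at 0 in every library.

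Among partner genes ITGAV, which encodes an integrin subunit bound by CD97, had the widest fold range between libraries in its list, at 1.5, 3.08 and 13.1 TPM, and replicate 3 was the highest. It was chosen after its values were seen.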
